A study of Mus musculus with 4 samples.

Results

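The genes described here build, modify and carry heparan sulfate, the sulfated sugar chain of the cell surface. They were chosen by symbol as the pathway of Ext1, a chain polymerase, and comprised 38 genes of the 19714 that could be tested and of the 24185 symbols on the array. Every one of the 38 had at least 1 probe that was not a control spot on all 4 arrays. By role, 5 build the linker to the core protein, 5 polymerize or start the chain, 16 sulfate, epimerize, trim or cleave it, and 12 are core proteins.

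The measurements came from RNA immunoprecipitation followed by microarray (RIP-microarray), which recovers RNA together with a protein that an antibody pulls down. Lysate of cortex and hippocampus from 8-week-old male C57BL/6 mice, with no genetic change given, was divided in each of 2 experiments between beads carrying CPEB2 IgG and beads carrying control IgG, and incubated for 3 h. The sources used here do not give the number of mice in a lysate. The recovered RNA was amplified, labeled with Cy3 and hybridized to a 1-color Agilent array, so each antibody had 2 arrays. Control IgG gives the background of the beads and is not the RNA content of the lysate. The sample titles and the protocol name CPEB2 IgG, whereas a text field of the same samples names CPEB3 IgG, and the arrays are called CPEB2 IgG throughout. All arrays lay on the same slide, with control IgG and CPEB2 IgG at different positions, so position and antibody cannot be told apart. Well above background were 68.4% to 74.1% of an array's spots, and none was saturated. P-values here measure only the spread between these 2 experiments.

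CPEB2 is a cytoplasmic RNA-binding protein that recognizes the cytoplasmic polyadenylation element (CPE) in 3′-untranslated regions and controls translation. Heparan sulfate is assembled in the Golgi on a short linker sugar attached to a core protein, polymerized as an alternating chain of glucuronic acid and N-acetylglucosamine, and then N-sulfated, epimerized and O-sulfated in patches. In the brain these chains hold growth factors, axon guidance cues and synaptic organizers at the cell surface, and the pattern of sulfation sets which of them bind.

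The members were read by 54 probes of 60 bases. Of the members, 23 had a single probe and 15 had several. The probe sequence reads as the mRNA does, so short motifs of the transcript could be looked for directly in it. The CPE forms TTTTAT and TTTTAAT were each found in 0 of the 54 member probes, and either form was present in 4.54% of all probes on the array (3.69% and 0.912% for the forms taken singly). This says only that these letters are not in the probed windows, and the rest of the 3′-untranslated regions was not analysed here. The poly(A) signal AATAAA, which lies shortly before the end of an mRNA, was present in 6 of the 54 member probes against 10.1% of all probes. Each motif was searched on the probe strand alone. The 6 probes are shown because they hold these letters, which does not show that the site is used. An upstream probe of Agrn is shown beside them because the probes of that gene gave different fold changes, and the probe of Ext1 because the pathway was chosen around this gene. Each line gives 30 of the 60 probe bases from the array annotation, 5′ to 3′, with AATAAA in capitals.
Ndst2: gttttgggacctAATAAAggggcttccctt
Sulf2: cttttcaagagtcgcggtgtcAATAAAcgc
B4galt7: aaagggggatgaAATAAAagacgatgctct
Ndst4: ctgtgAATAAAttcctatcgatgttttctg
Hs6st1: ttgggcagagtcctgtctcAATAAAactag
Agrn, downstream probe: tgtgtcaatgtcaaataccatgaAATAAAg
Agrn, upstream probe: ctacgggaactggggcctggcaaattagtc
Ext1: tgtgacaaaattgcctccaatcaaagtgac

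On mm9, the build of the array annotation, the whole probes lie at chr14:21543258-21543317 on the minus strand for Ndst2, chr2:165899667-165899726 on the minus strand for Sulf2 and chr13:55711744-55711803 on the plus strand for B4galt7. The probes lie at chr3:125427787-125427846 on the plus strand for Ndst4 and chr1:36163691-36163750 on the plus strand for Hs6st1. Those of Agrn lie at chr4:155539415-155539474 and, upstream, chr4:155546878-155546937, both on the minus strand, and that of Ext1 lies at chr15:52904855-52904914 on the minus strand. For Ndst4 and Hs6st1 the probe with the poly(A) signal was not the brightest probe of the gene, and the values by gene below come from another probe. No gene models of this build were used here, so exons and untranslated regions were not assigned beyond the position of a probe in its transcript.

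Members that were higher with CPEB2 IgG included Ext1 and Extl3 of chain polymerization, Ndst2, Glce, Hs3st1 and Sulf2 of sulfation and editing, and the core proteins Sdc2 and Sdc4. No member was lower, although 1 to 3 were lower under 8 of the 12 alternative limma settings. In limma, with Benjamini-Hochberg adjustment over all genes tested and a threshold of 0.05, 12 of the 38 members were higher (31.6%), against 21.2% of all 19714 genes tested. None of the 38 was lower, against 20.4% of all genes tested. At an unadjusted p under 0.05 in the same limma fit, 18 members were higher, against 25.1% of all genes tested. The 18 include Gpc2 and Hpse, which were well above background on the CPEB2 IgG arrays alone. At that level 2 were lower, Extl1 and Hs3st4, against 26.4%. The median log2 fold change of the 38 members was 0.62, and it was -0.11 over all genes tested. In the experiments taken singly the median of the members was 0.45 and 0.75. With 2 arrays against 2, the smallest p of an exact two-sided permutation test of a gene is 0.333, so genes were judged by limma, which pools information on the spread across all genes.

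The arrays of the antibodies were apart, in either direction, in 28 of the 38 members (73.7%), close to the 71.9% of all genes tested. Both CPEB2 IgG arrays lay above both control IgG arrays in 23 of the 38 members, against 33.6% of all genes tested. They lay below in 5 members, against 38.3% of all genes tested, and the arrays overlapped in 10, against 28.1%. Both experiments gave a positive log2 fold change in 25 members, both a negative one in 6 and opposite signs in 7, which is 18.4% of the members against 20.3% of all genes tested. Of the members, 35 were well above background on all 4 arrays. Gpc2 and Hpse passed the filter on dim probes, which asks for 2 arrays, through the CPEB2 IgG arrays alone, so only a gene that is high there could be counted. Both are among the 28 members apart, the 23 with CPEB2 IgG above and the 25 positive in both experiments. Without them 11 of 36 members were higher. Sdc1 passed on 3 arrays.

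**Figure D1:**
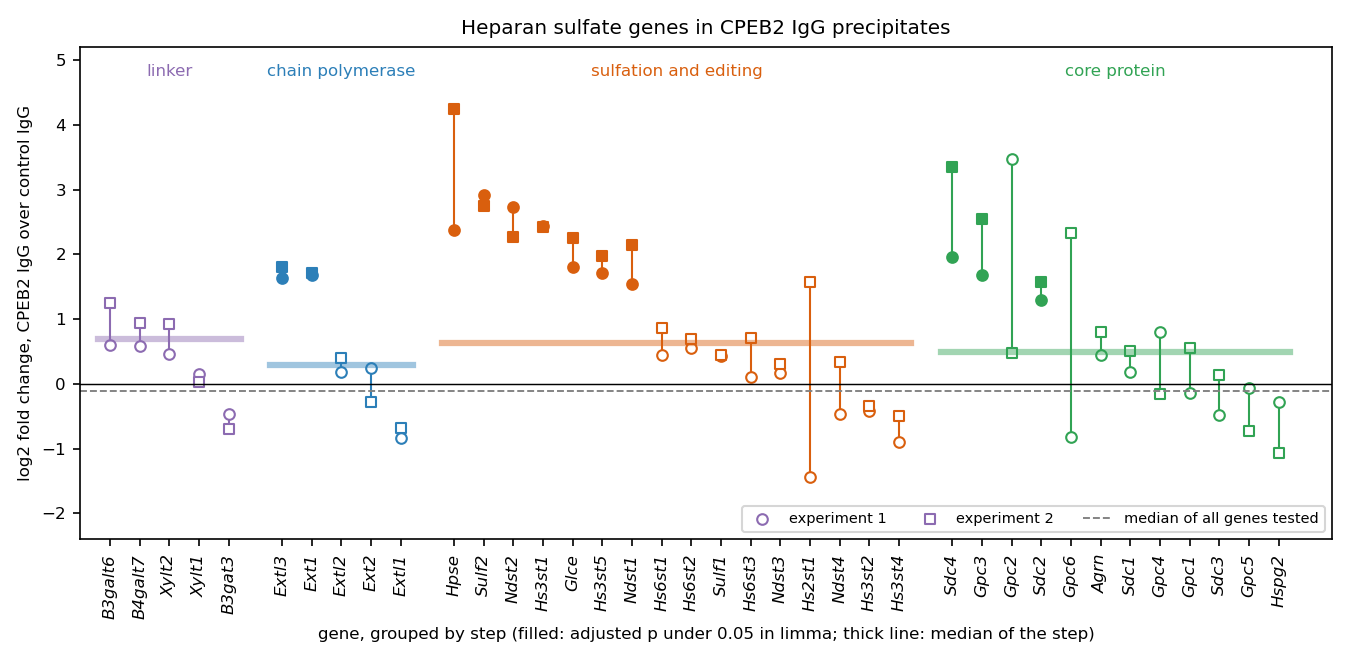
The log2 fold change of CPEB2 IgG over control IgG for each of the 38 genes, grouped by step, with a circle for experiment 1, a square for experiment 2, filled symbols for genes with an adjusted p under 0.05 and a thick line at the median of the step. The 12 filled genes lie above 1 in both experiments, whereas Hs2st1, Gpc2 and Gpc6 span a wide range between experiments.

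The linker enzymes were mostly above 0 but none of the 5 passed the threshold. Under the 12 alternative limma settings, B4galt7 was called higher in 6, B3galt6 in 5 and Xylt2 in 3. B3gat3 was called lower in 1 of them. The median log2 fold change of the linker enzymes was 0.69, and 0.31 with the probes of each gene averaged. At an unadjusted p under 0.05 in limma, 3 of the 5 were higher, against 25.1% of all genes tested. At that level 0 were lower, against 26.4%. B3galt6, which adds the second galactose of the linker, had signals of 185 and 324 for CPEB2 IgG against 129.6 and 139 for control IgG. Its CPEB2 IgG arrays were above the control IgG arrays, with a log2 fold change of 0.92 ± 0.46 (SD, n = 2 experiments, limma adjusted p = 0.0526). B4galt7, which adds the first galactose, had signals of 1140.3 and 1358 for CPEB2 IgG against 808 and 716 for control IgG. The groups were again apart, and the log2 fold change was 0.76 ± 0.26 (SD, n = 2, limma adjusted p = 0.0637, and 0.0408 without the replicate block). The other probe of B4galt7 gave 0.09 ± 0.37 (SD, n = 2). Xylt2 and Xylt1 are the xylosyltransferases that start the linker on a serine of the core protein. Xylt2 had signals of 897 and 1053 for CPEB2 IgG against 689 and 565 for control IgG, a log2 fold change of 0.69 ± 0.32 (SD, n = 2, limma adjusted p = 0.0875). The other probe of Xylt2 gave -0.08 ± 0.99 (SD, n = 2). Xylt1 read 112 and 114 for CPEB2 IgG against 106 and 114 for control IgG, where the arrays overlapped, and its log2 fold change was 0.09 with a 95% interval from -0.52 to 0.70. B3gat3, which closes the linker with glucuronic acid, was the linker gene with both control IgG arrays on top, at 619 and 814 against 425 and 493 with CPEB2 IgG. On the log2 scale it stood at -0.58 ± 0.17 (SD, n = 2, limma adjusted p = 0.113).

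Among the 5 genes of chain polymerization, Ext1 and Extl3 were higher with CPEB2 IgG and the other three did not pass the threshold. The median of the step was 0.29, with 0.52 after median centring and 0.13 after centring within bins of GC content. EXT1 and EXT2 together form the polymerase that lengthens the chain. Ext1 (NM_010162) had signals of 1184 and 1585 for CPEB2 IgG against 391 and 493 for control IgG. The 2 experiments gave close values, 1.68 and 1.71 on the log2 scale, with a mean of 1.69 (limma adjusted p = 0.00749), a fold change of 3.24. Ext2 (NM_010163), the partner subunit, had signals of 43.1 and 47.2 for CPEB2 IgG against 38.7 and 58.3 for control IgG, so its arrays overlapped. Its log2 fold change was -0.02 with a 95% interval from -0.70 to 0.66 (limma adjusted p = 0.955), and its sign turned under 4 of the other scalings and background corrections. The interval of Ext2 lies below that of Ext1, from 1.09 to 2.30, but the difference between the genes was not tested. The Ext2 probe lies at base 519 of its transcript, whereas the Ext1 probe lies at base 2808 of its own.

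EXTL3 adds the N-acetylglucosamine that commits a linker to heparan sulfate. Extl3 (NM_018788) had signals of 14873 and 14236 for CPEB2 IgG against 5097 and 4137 for control IgG. The groups lay far apart, at a log2 fold change of 1.72 ± 0.13 (SD, n = 2, limma adjusted p = 0.00753), a fold change of 3.29. Extl2, a transferase that can cap the linker, had signals of 1664 and 1894 for CPEB2 IgG against 1554 and 1453 for control IgG, with a log2 fold change of 0.29 ± 0.16 (SD, n = 2, limma adjusted p = 0.369). Extl1, a related N-acetylglucosamine transferase, went the other way. Its signals were 305 and 334 for CPEB2 IgG against 574 and 542 for control IgG. Both control IgG arrays were above both CPEB2 IgG arrays, and the log2 fold change was -0.75 ± 0.11 (SD, n = 2, limma adjusted p = 0.0580, and 0.0347 without the replicate block). It was called lower under 7 of the 12 alternative limma settings.

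The 16 genes that sulfate and edit the chain held 7 of the 12 calls (43.8% of the step, against 21.2% of all genes tested), or 6 of 15 without Hpse, which was detected with CPEB2 IgG alone. Their median log2 fold change was 0.64, with 0.50 in experiment 1, 1.22 in experiment 2 and 0.30 with the probes of each gene averaged. N-deacetylase/N-sulfotransferases (NDST) open this stage, because later enzymes act where the chain has been N-sulfated. Ndst2 (NM_010811) had signals of 1010.4 and 823 for CPEB2 IgG against 161 and 174 for control IgG. It was 5.65-fold higher, at 2.50 ± 0.33 on the log2 scale (SD, n = 2, limma adjusted p = 0.00541). Ndst1 (NM_008306) had signals of 2259 and 2774 for CPEB2 IgG against 821 and 639.7 for control IgG at its brightest probe. The log2 fold change there was 1.84 ± 0.42 (SD, n = 2, limma adjusted p = 0.00855), but with its 3 probes averaged it was 0.14 and no longer passed (adjusted p = 0.658). Ndst3 and Ndst4 did not pass the threshold. Ndst3 read 212 and 263 for CPEB2 IgG against 200.5 and 215 for control IgG, a log2 fold change of 0.24 with a 95% interval from -0.37 to 0.85. Ndst4 read 42.7 and 53.0 for CPEB2 IgG against 62.6 and 42.6 for control IgG, and its sign differed between the experiments, at -0.47 and 0.34.

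Glce encodes the epimerase that turns glucuronic acid into iduronic acid, the substrate of 2-O-sulfation. Its signals were 2224 and 2926 for CPEB2 IgG against 677 and 625 for control IgG. The groups were well apart, with a log2 fold change of 2.02 ± 0.32 (SD, n = 2, limma adjusted p = 0.00657), a fold change of 4.07. Hs2st1, the 2-O-sulfotransferase that acts next, had signals of 1327 and 2804 for CPEB2 IgG against 3797 and 958 for control IgG. Experiment 1 gave -1.43 and experiment 2 gave 1.57 on the log2 scale, so its mean of 0.07 stands for 2 opposite readings and its 95% interval ran from -1.85 to 1.99. The 6-O-sulfotransferases Hs6st1, Hs6st2 and Hs6st3 had both CPEB2 IgG arrays above both control IgG arrays but none passed the threshold. Hs6st2, at 1091 and 1267 with CPEB2 IgG against 789.7 and 799 with control IgG, reached a log2 fold change of 0.62 ± 0.10 (SD, n = 2, limma adjusted p = 0.0930). Hs6st1 was at a log2 fold change of 0.66 ± 0.29 (SD, n = 2, limma adjusted p = 0.0954) and Hs6st3 of 0.40 ± 0.42 (SD, n = 2, limma adjusted p = 0.285). With the probes of each gene averaged, Hs6st1 was at 0.09 and Hs6st3 at 0.18. Centring within bins of GC content gave 0.27 and 0.55.

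The 3-O-sulfotransferases add the rarest sulfate of the chain. Among the members 2 of them were higher, Hs3st1 and Hs3st5, and 2 did not pass the threshold. Outside the members, Hs3st3a1, Hs3st3b1 and Hs3st6 did not pass either. Their log2 fold changes were 0.21, 0.36 and 0.11 (limma adjusted p = 0.757, 0.445 and 0.743). Hs3st1 (NM_010474), known for making the antithrombin-binding site, had signals of 2775 and 2939.5 for CPEB2 IgG against 541 and 559.8 for control IgG. Its 2 experiments gave 2.44 and 2.42 on the log2 scale, a fold change of 5.38 (limma adjusted p = 0.00538). Hs3st5 (NM_001253355) had signals of 881 and 893 for CPEB2 IgG against 284 and 230.3 for control IgG. It was 3.60-fold higher, at 1.85 ± 0.19 on the log2 scale (SD, n = 2, limma adjusted p = 0.00690). For Hs3st4 the control IgG arrays were on top, with signals of 3699 and 3278 against 1873 and 2286 with CPEB2 IgG. On the log2 scale it stood at -0.70 ± 0.28 (SD, n = 2, limma adjusted p = 0.0816), and it was called lower under 5 of the 12 alternative limma settings. Hs3st2 had signals of 571 and 604 with control IgG and 402 and 471 with CPEB2 IgG, a log2 fold change of -0.38 ± 0.06 (SD, n = 2, limma adjusted p = 0.247). In Hs3st1 and Hs3st5 the arrays did not overlap in the direction of CPEB2 IgG, and in Hs3st2 and Hs3st4 in the direction of control IgG, but the difference between these pairs was not tested.

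Of the 3 genes that act on the finished chain, Sulf2 and Hpse were higher and Sulf1 did not pass the threshold. SULF1 and SULF2 are secreted endosulfatases that remove 6-O-sulfate at the cell surface. Sulf2 (NM_028072) had signals of 3943 and 4178 for CPEB2 IgG against 552 and 633 for control IgG. That is a 7.12-fold difference, at 2.83 ± 0.12 on the log2 scale (SD, n = 2, limma adjusted p = 0.00538). Sulf1 had signals of 409 and 303 for CPEB2 IgG against 319.7 and 227 for control IgG. Once the arrays were scaled its CPEB2 IgG arrays lay above the control IgG arrays, and both experiments gave 0.44 on the log2 scale (limma adjusted p = 0.189). The 95% interval of Sulf1, from -0.16 to 1.04, lies below that of Sulf2, from 2.22 to 3.44, and the difference was not tested. Hpse encodes heparanase, the endoglucuronidase that cuts the chain. It read 67.4 and 96.8 for CPEB2 IgG against 13.7 and 5.18 for control IgG, where it was not well above background on either array. A control signal dimmer than the dimmest detected signal of its array was raised to that signal. This gave an 8.74-fold difference, which is not exact because the control signals were at background. On measured values the limma adjusted p was 0.00880. Hpse lost its call with no filter on dim probes and after centring within bins of GC content. Under the latter a different probe became its brightest, while the probe used here gave 2.93 on the log2 scale.

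**Figure D2:**
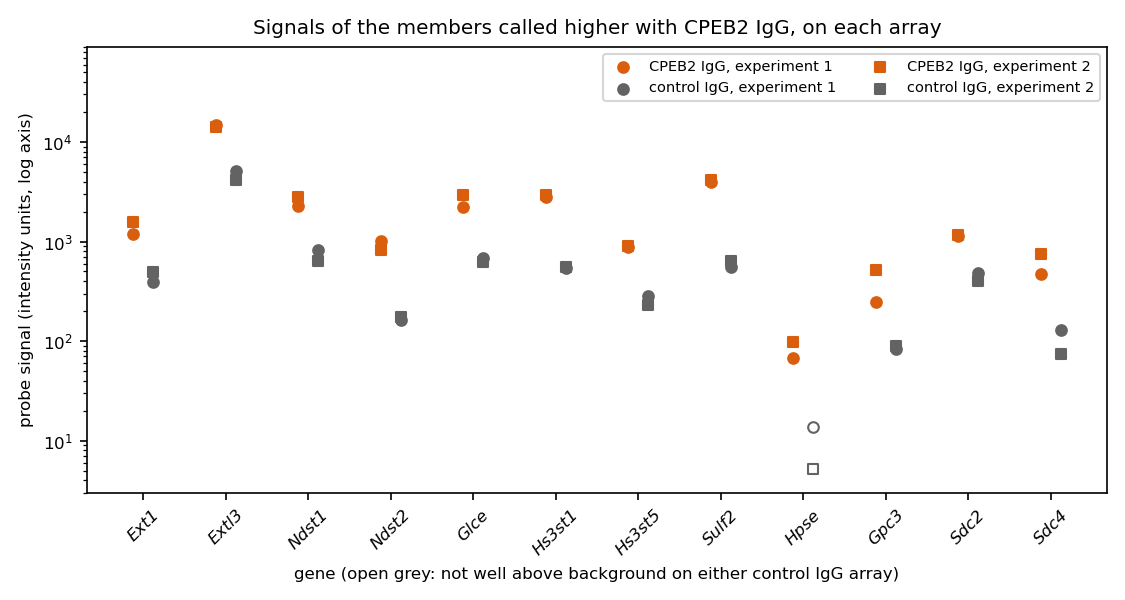
Probe signal in intensity units on a log axis for the 12 genes called higher with CPEB2 IgG, with orange symbols for CPEB2 IgG, grey for control IgG, circles for experiment 1 and squares for experiment 2. No orange symbol overlaps a grey one of the same gene, and the open symbols of Hpse mark signals that were not well above background.

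Among the 12 core proteins, 3 were higher with CPEB2 IgG (25%), near the 21.2% of all genes tested. Opposite signs in the 2 experiments were seen in 4 of the 12 (33.3%), against 20.3% of all genes tested. The median of the group was 0.49, with 0.32 in experiment 1 and 0.53 in experiment 2. It was 0.24 with normexp background correction and 0.71 with median centring. Syndecans are transmembrane proteoglycans that join the matrix to the cytoskeleton. Sdc4 (NM_011521) had signals of 469 and 748 for CPEB2 IgG against 128 and 74.7 for control IgG, and the log2 fold change was 2.65 ± 0.99 (SD, n = 2, limma adjusted p = 0.00902), a fold change of 6.27. Sdc2 (NM_008304), enriched at dendritic spines, had signals of 1125 and 1166 for CPEB2 IgG against 485 and 398 for control IgG. Its groups were apart by 1.43 ± 0.20 on the log2 scale (SD, n = 2, limma adjusted p = 0.0115), a fold change of 2.70. Sdc3, the syndecan of axons, read 1205 and 1563 for CPEB2 IgG against 1780.1 and 1437 for control IgG. Its arrays overlapped, with log2 fold changes of -0.48 and 0.14 in the 2 experiments. Sdc1, a mainly epithelial syndecan, had signals between 15.9 and 28.3 and an estimated log2 fold change of 0.35 ± 0.22 (SD, n = 2, limma adjusted p = 0.303).

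Glypicans are tethered to the membrane by a lipid anchor and several of them organize synapses. Gpc3 (NM_016697) was the glypican that passed the threshold. It had signals of 249 and 512 for CPEB2 IgG against 82.6 and 89.5 for control IgG, and a log2 fold change of 2.11 ± 0.61 (SD, n = 2, limma adjusted p = 0.00844). Gpc2 had signals of 209 and 20.9 for CPEB2 IgG against 19.9 and 15.3 for control IgG, where it was not well above background. Only the CPEB2 IgG array of experiment 1 stood apart. The experiments gave 3.47 and 0.47 on the log2 scale. Their mean on measured values was a 3.92-fold difference, which is not exact because the control signals were at background. Gpc2 did not pass the threshold (limma adjusted p = 0.0908 on measured values). Gpc6 gave -0.81 and 2.34 on the log2 scale in the 2 experiments, with signals of 148 and 133 for CPEB2 IgG against 276 and 26.7 for control IgG. Its control IgG arrays lay on either side of both CPEB2 IgG arrays. Gpc1, a glypican of neurons, had signals of 4218 and 5516 for CPEB2 IgG against 4899 and 3826 for control IgG. The arrays overlapped and its log2 fold change was 0.21 with a 95% interval from -0.52 to 0.94. Gpc4, which astrocytes secrete to promote synapses, had log2 fold changes of 0.81 and -0.16 in the 2 experiments. Gpc5 was below 0 in both, at -0.06 and -0.73.

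Agrin and perlecan are large secreted proteoglycans of basement membranes. Agrn (NM_021604) had signals of 2381 and 3234 for CPEB2 IgG against 1842 and 1884 for control IgG at its brightest probe. The groups did not overlap, at a log2 fold change of 0.63 ± 0.25 (SD, n = 2, limma adjusted p = 0.101). Hspg2, which encodes perlecan, lay the other way, with signals of 242 and 225 with control IgG and 188 and 106 with CPEB2 IgG. On the log2 scale it stood at -0.67 ± 0.55 (SD, n = 2, limma adjusted p = 0.131). Without a filter on dim probes Gpc3 and Sdc4 lost their calls, with adjusted p-values of 0.0525 and 0.0614 in limma. For the signal on a single array, fewer cells of a type and less RNA per cell cannot be told apart, whereas both antibodies of an experiment received the same lysate.

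Probes of the same gene did not always give the same answer, and in Ndst1, Agrn and Hpse the last probe read higher by more than 1 on the log2 scale. Among the 51 member probes that could be tested in a limma fit over probes, 12 were higher, against 12.7% of 41154 probes, and 2 were lower, against 14.8%. Both lower probes, on Ndst1 and Agrn, belonged to genes whose 3′ probe was above 0. At base 544 of the Ndst1 transcript the signals were 168 and 122 for CPEB2 IgG against 397 and 381 for control IgG, which is -1.39 ± 0.33 on the log2 scale (SD, n = 2, limma over probes, adjusted p = 0.0238). At base 3385 the log2 fold change was -0.04 ± 0.20, and at base 5788 it was 1.84 ± 0.42. Agrn showed a like pattern. Its upstream probe at base 3611 had signals of 57.2 and 34.3 for CPEB2 IgG against 132 and 108 for control IgG, which is -1.38 ± 0.36 on the log2 scale (SD, n = 2, limma over probes, adjusted p = 0.0250), and its probe at base 7303 read 0.63. The Hpse probe at base 1391 gave -0.32 ± 0.22, whereas the probe at base 2962 carried the call.

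Of the members, 8 had several tested probes on the same transcript. The last probe gave the higher log2 fold change in 6 of the 8 (75%), against 74.7% of 4186 genes with such probes. The exceptions were Hs3st4 and Hspg2, where the last probe was lower by 0.12 and 0.22. Hpse is among the 6, but its last probe was detected with CPEB2 IgG alone. It could therefore be counted only with a high value. The median difference between the last and the first probe was 0.81 in the members and 0.50 over all such genes. The last probe also had the lower GC content in 7 of the 8 members (87.5%), against 64.2% of all such genes. The 2 probes differed by more than 1 on the log2 scale in 3 of the 8 members (37.5%) and in 35.6% of all such genes. Hpse is also among these 3, with the same limit. For position and for differences above 1 the members, with Hpse counted, lay near the share of all such genes. Position and GC content cannot be told apart in these genes, since the last probe of nearly all of them also had the lower GC content.

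**Figure D3:**
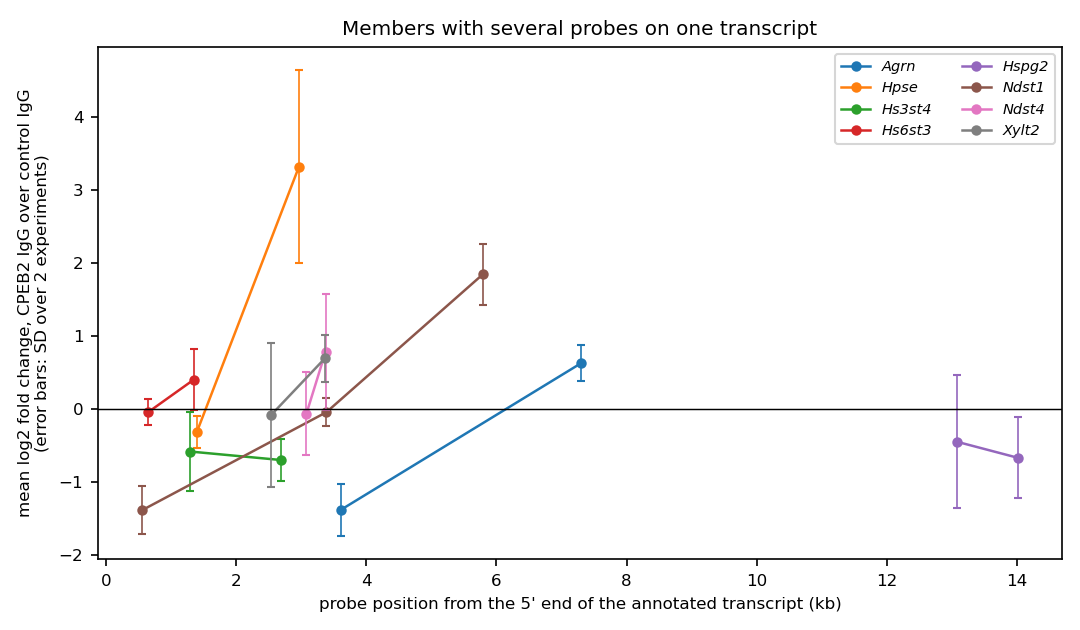
Mean log2 fold change of each probe against its position in kb from the 5′ end of the annotated transcript, for the 8 genes with several tested probes on the same transcript, with error bars for the SD over 2 experiments. Lines join the probes of a gene. Ndst1, Agrn and Hpse climb by more than 1 from below 0 at the first probe to above 0 at the last. Hs6st3, Ndst4 and Xylt2 also climb from just below 0 to above 0, by less.

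Probe GC content also varied with the fold change across the members. The cut of 40% was set after the values were seen. With a probe GC content of at most 40%, 10 of 22 members were higher (45.5%), against 32.2% of the 9013 genes tested in that range. The 22 include Hpse, which was called, and Gpc2. Both were detected with CPEB2 IgG alone, so they could be counted only with a high value. Above 40%, 2 of 16 members were higher (12.5%), against 11.9% of 10701 genes, and these were Ndst2 at 50% and Sulf2 at 45%. None of the members was lower in either range, against 12% and 27.5% of all genes. Centring each array within bins of GC content kept 11 of the 12 calls.

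**Figure D4:**
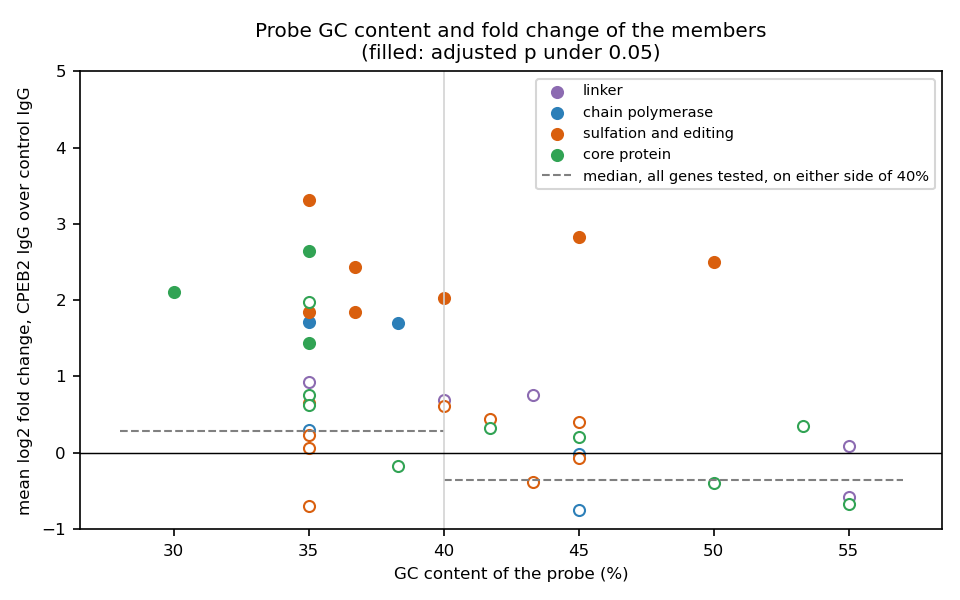
Mean log2 fold change of each of the 38 genes against the GC content of its brightest probe in percent, colored by step, with filled symbols for an adjusted p under 0.05. The dashed lines give the median of all genes tested on either side of 40%, which were 0.29 and -0.36, and Sulf2 and Ndst2 are the filled symbols to the right.

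The selection described in the study's methods asks for raw signals above 1000 and an enrichment above 1.5-fold with CPEB2 IgG. The signal was here required on at least 1 CPEB2 IgG array, which the methods do not specify, and the selection was applied without its step on CPEs and without a test. Of the members, 17 were that bright on at least 1 CPEB2 IgG array, and 12 of these also passed the fold change. Over all genes, 47.7% of the 7033 with such a signal passed. Of the 12, 8 were among the genes called by limma, namely Ext1, Extl3, Ndst1, Ndst2, Glce, Hs3st1, Sulf2 and Sdc2. The other four, Hs6st2, Xylt2, B4galt7 and Agrn, had fold changes between 1.54 and 1.70 and did not pass limma. Hs3st5, Hpse, Gpc3 and Sdc4 were called by limma but their signals with CPEB2 IgG were under 1000. With a raw signal above 2000, 6 members passed, a count that has no share over all genes beside it and says nothing particular about the members.

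Genes next to the pathway were counted by lists drawn up with earlier results of these arrays known, and are read against the same 21.2% higher and 20.4% lower. Of 9 further heparan sulfate genes, 4 were higher and 0 were lower, also at an unadjusted p under 0.05 in limma. They included Col18a1, the collagen XVIII core protein, at 3.13 ± 0.29 on the log2 scale (SD, n = 2 experiments, limma adjusted p = 0.00538). Tgfbr3, the betaglycan core protein, was at 2.83 and Acpl2, now called Pxylp1, the phosphatase that removes the phosphate from the linker xylose, at 2.65. Of 10 genes that supply the sulfate donor PAPS and nucleotide sugars, 5 were higher and 1 was lower. Slc35b3, a Golgi PAPS transporter, was at 2.49 and Ugdh, which makes UDP-glucuronic acid, at 2.01, both with CPEB2 IgG above. Papss2, a PAPS synthase, was the lower gene at -0.92 (limma adjusted p = 0.0337). Of 8 lysosomal enzymes that degrade the chain, 1 was higher, Ids, the iduronate sulfatase, at 1.32 ± 0.47 (SD, n = 2, limma adjusted p = 0.0207), and 0 were lower, again also at an unadjusted p under 0.05. The median of the degradation list was 0.05 and turned below 0 under some settings, between -0.06 and 0.28.

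The sister pathway of chondroitin and dermatan sulfate, which shares the linker enzymes, had a larger share of calls than the heparan sulfate members, a difference that was not tested. Of its 16 enzymes, 11 were higher and 1 was lower, with a median log2 fold change of 1.37. Chst14, the dermatan 4-O-sulfotransferase, had signals of 279 and 267 for CPEB2 IgG against 19.1 and 25.6 for control IgG, a log2 fold change of 3.68 ± 0.39 (SD, n = 2, limma adjusted p = 0.00538). Chsy1, the chondroitin synthase, was at 2.85 and Chpf, its partner in polymerization, was lower at -0.98 (limma adjusted p = 0.0296). Of 9 chondroitin sulfate core proteins, 4 were higher and 2 were lower. The ends of that list were Vcan, versican, at 3.25 and Bgn, biglycan, at -1.85 (limma adjusted p = 0.0117). Of 16 ligands and receptors that bind heparan sulfate, 9 were higher and 1 was lower. Gpr158, a synaptic receptor that binds glypicans, had signals of 8554 and 10162 for CPEB2 IgG against 1070 and 1231 for control IgG, a log2 fold change of 3.08 (limma adjusted p = 0.00538). Lrrtm4, a postsynaptic partner of glypicans, was at 2.56 and Fgf1, a growth factor, was the lower gene at -0.88 (limma adjusted p = 0.0477). Over the alternative limma settings, the enzymes of chondroitin and dermatan sulfate had between 6 and 12 genes higher and 0 or 1 lower. The ligands and receptors had between 6 and 10 higher and between 0 and 5 lower, and at an unadjusted p under 0.05 in the limma fit reported here 10 higher and 3 lower. The suppliers of PAPS and sugars had between 3 and 6 higher and 0 or 1 lower, the chondroitin sulfate core proteins between 2 and 4 higher and between 0 and 2 lower, the lysosomal enzymes between 0 and 3 higher and the further heparan sulfate genes 4 under each.

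**Figure D5:**
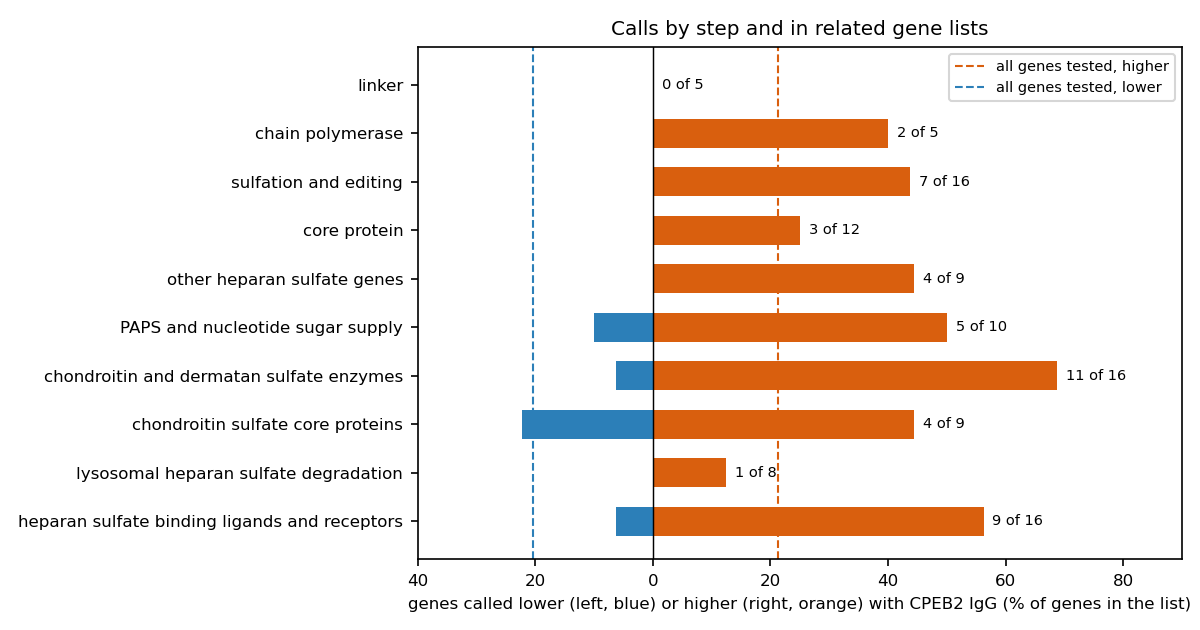
Genes called lower (left) or higher (right) with CPEB2 IgG as a percent of the genes tested in each of the 4 steps and 6 related lists, with counts of higher genes printed and dashed lines at the shares over all genes tested, 20.4% and 21.2%. The linker and lysosomal degradation lie under the right dashed line, and the chondroitin and dermatan sulfate enzymes extend furthest, with 11 of 16.

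Markers of the labelled tissue were present. All markers of neurons, pyramidal neurons, astrocytes, oligodendrocytes, microglia, endothelial and mural cells and meningeal fibroblasts were well above background on both control IgG arrays. The counts below stand beside 21.2% of all genes tested higher and 20.4% lower, and no list was tested against these shares. At an unadjusted p under 0.05 the share higher was 25.1%. Of 5 neuron markers 1 was higher and 2 were lower, and of 4 astrocyte markers 1 was higher and 2 were lower. The summed signal of the astrocyte markers was 3449 and 3048 for CPEB2 IgG against 15960 and 12536 for control IgG, largely through Aldh1l1 at -3.77 on the log2 scale. Of 4 microglia markers 2 were lower, of 4 oligodendrocyte markers 1 and of 4 pyramidal neuron markers 1, and none of these lists had a gene that was higher in limma, with 1 pyramidal neuron marker higher at an unadjusted p under 0.05. Of 5 endothelial and mural markers 1 was higher and 1 was lower. Of 4 meningeal fibroblast markers 2 were higher, Col1a1 and Lum, the others did not pass, at log2 fold changes of 0.54 and 0.32, and the summed signal of the 4 was 2627 and 1939 for CPEB2 IgG against 1597 and 1097 for control IgG. The part of any of these cells in the values above was not tested.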

How the data were processed

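RIP-microarray RNA from 4 samples was analysed, 2 with CPEB2 IgG and 2 with control IgG. The authors deposited one Agilent Feature Extraction 10.5.1.1 file per array, whose values are spot intensities after that software's background correction, with no scaling between arrays. Spots marked as uneven or outliers were left out, 66 probes without a value on every array were dropped, and each array was scaled on the log2 scale to the 75th percentile of the other 55615. Each gene was represented by its brightest probe among those well above background on at least 2 arrays. The model of limma 3.58.1 (R 4.3.3) held antibody and, as a block, experiment, which leaves 1 residual degree of freedom. The block follows the study's methods, where both antibodies received parts of the same lysate. Arrays of the same number deviated together (correlation 0.206). Python 3.11.15 with numpy 2.4.6, pandas 2.3.3 and scipy 1.17.1 did the rest. A run on simulated data required only that the mean estimate lie near the fold change set, which does not test the calls. The 95% intervals are from limma and the number of arrays limits the precision. The members, the lists and the rule for named genes, which names each member and at most 3 genes of a list, were chosen with earlier results of these data known. Of the genes outside the members, Aldh1l1, Col1a1 and Lum were named after their values were seen. Hs3st3a1, Hs3st3b1 and Hs3st6 were likewise named with their values known, beyond the 3 genes of their list. Other scalings, background corrections, probe choices, filters and models were tried as alternatives.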

Additional observations from a re-analysis of the deposited data

How the results depend on the processing

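Of the 12 members called higher, 9 to 12 kept the call under each of 12 alternative limma settings, and the number of members called higher ran from 9 with no filter on dim probes to 19 with median centring, which raised all genes by 0.23. Quantile normalization moved the median of all genes by 0.13 and the percentile over probes detected on all arrays by -0.11. Median centring also raised the share of higher genes among all calls from 50.9% to 61.2%. Against 0 members lower, 1 was lower with no scaling, with the other percentile, with centring within GC bins and without the replicate block, 2 with quantile normalization, with detection on all 4 arrays and with an intensity trend, and 3 with normexp background correction. Without the replicate block 13 members were higher. The block changed no call but those of Extl1 and B4galt7. The median log2 fold change of all members was 0.85 with median centring, 0.40 with normexp and 0.33 with the mean of the probes. With the mean of the probes that of the linker was 0.31 and that of sulfation and editing 0.30. The chain polymerases were at 0.52 with median centring and 0.13 with GC centring, and the core proteins at 0.71 with median centring and 0.24 with normexp. Leaving out either experiment gave medians from 0.50 to 1.22 for sulfation and editing and from 0.32 to 0.53 for the core proteins. The sign reversed for Ext2 with quantile normalization (0.20), median centring (0.21), GC centring (0.13) and normexp (0.061), and for Ndst4 with quantile normalization (0.17), median centring (0.16), GC centring (0.083) and averaged probes (0.36). It reversed for Hs2st1 with quantile normalization (-0.025), the other percentile (-0.038) and GC centring (-0.32), for Extl2 (-0.096) and Ndst3 (-0.15) with GC centring, for Xylt1 with the other percentile (-0.016), for Sdc3 with median centring (0.059) and for Agrn with the mean of the probes (-0.38). For Hpse under GC centring (-0.17), another probe was taken. No cause was tested for the remaining reversals. With a raw signal above 2000, 6 members passed both thresholds against 12, since fewer members are that bright, and 8 or 12 passed when an experiment was left out. These counts were not set against all genes. With 1 array for each antibody left, no test could be made without either experiment.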
